A study of Mus musculus with 7 samples.

Results

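The 10 genes described here are inhibitory or related immune receptors and ligands of myeloid cells, measured in microglia from inside and outside WT grafts in 5xFAD cortex. They were the sialic acid receptors Siglech, Siglece, Siglec1 and Cd33, the receptor Sirpa and its ligand Cd47, the immunoglobulin-like receptors Pirb and Lilrb4a, and the CD300 receptors Cd300a and Cd300lf. The 10 genes were taken by name from the 55341 gene names of the count table. They were chosen with earlier results of these data known, so shares of all genes set beside them are descriptions only. All 10 had enough reads to enter the tests on 15257 genes.

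Inside graft microglia (3 libraries) came from grafts of WT cortical cells that had been placed in the cortex of 5xFAD mice 4 weeks earlier, and outside graft microglia (4 libraries) came from small pieces of cortex close to such grafts. All 7 libraries were labelled C57BL/6, 5xFAD and 14 weeks of age. The 5xFAD mouse expresses mutant human APP and PS1 in neurons under the Thy1 promoter, so both groups carried the transgenes in the host brain and the comparison concerns position relative to the graft, not genotype. Grafted animals supplied both groups, so no library represents cortex that never received a graft. The cells were sorted as CD11b+CD45low, a gate that is meant to keep resident microglia and to leave out blood-derived CD45high cells. The labels do not say whether each library came from a separate mouse, so P values measure the spread between libraries.

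Inhibitory receptors of this kind set the threshold at which a macrophage responds. Most of them carry immunoreceptor tyrosine-based inhibition motifs (ITIMs) in the cytoplasmic tail, which recruit the phosphatases SHP-1 (Ptpn6), SHP-2 (Ptpn11) and SHIP-1 (Inpp5d) once a ligand is bound. Siglecs read sialic acids on the surface of healthy cells, Sirpa reads the 'do not eat me' protein Cd47, Pirb reads MHC class I, and CD300 receptors read lipids such as phosphatidylserine on dying cells. Paired activating receptors often share ligands or ancestry with them and signal through the adaptors Tyrobp (DAP12) or Fcer1g. In microglia these pathways are known for restraining phagocytosis and inflammatory responses.

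Each library held between 18644807 and 25882122 counted reads. Microglial genes dominated both groups, with a summed level of 12 microglial markers between 47160 and 55140 CPM (read counts per 1000000 counts of the library) inside the graft and between 53330 and 59830 CPM outside it. Of the gated genes, Itgam (CD11b) averaged 336 CPM inside and 325 CPM outside the graft, and the groups overlapped. Ptprc (CD45) averaged 545 CPM inside and 425 CPM outside, and was higher in every inside library than in every outside library. The log2 fold change of Ptprc was 0.28 with an adjusted P of 0.269 in voomWithQualityWeights. The inside libraries also held transcripts of neutrophils, cells that the gate should leave out. The summed level of 8 neutrophil markers reached 7513 CPM, 797 CPM and 15300 CPM in inside graft 1, 2 and 3, against 0.311 to 367 CPM outside the graft. The 8 genes of the dividing cell list were all higher in every inside library than in every outside library, against 5.65% of all tested genes. Their sums were 92 to 141 CPM against 7.97 to 45.1 CPM. Of these genes, 2, Top2a and Birc5, passed an adjusted P of 0.05 in voomWithQualityWeights, against 0.492% of all tested genes. In sorted bulk RNA, a change in the number of cells of a type and a change in RNA per cell cannot be told apart. Among the outside libraries, outside graft 1 received the lowest quality weight in the test described next, 0.448, against 0.944 to 1.76 in the other outside libraries.

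The 10 genes did not move as a group. Cd300lf and Siglec1, both scarce receptors, were 3.08-fold and 3.63-fold higher inside the graft, Lilrb4a and Pirb were higher by less, Siglece was lower, and the abundant receptors Siglech and Sirpa differed little. With voomWithQualityWeights, a limma test that weights each library, 0 of the 10 genes passed the study's threshold of an adjusted P below 0.01, where 0.0197% of all tested genes (3) passed. At an adjusted P below 0.05, 2 of the 10 genes passed, Siglec1 and Cd300lf, both higher inside the graft, against 0.492% of all tested genes in either direction and 0.433% in the higher and 0.059% in the lower direction. With edgeR's quasi-likelihood test, 0 of the 10 genes passed 0.05, against 0.0983% of all genes, and 0 passed 0.01, against 0% of all genes. At an unadjusted P below 0.05, voomWithQualityWeights had 7 of the 10 genes, 4 higher and 3 lower, against 12.2% of all genes, and edgeR had 5 of the 10, against 9.55%. The DESeq2 Wald test placed 4 of them, Siglece, Siglec1, Lilrb4a and Cd300lf, below an adjusted P of 0.05, against 2.9% of the 17367 genes for which it gave an adjusted P.

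Of the 10 genes, 4 had every inside library above every outside library (Siglec1, Pirb, Lilrb4a and Cd300lf), against 5.65% of all tested genes, and 2 had every inside library below every outside library (Siglece and Cd33), against 5.02%. The other 4 overlapped. The median log2 fold change of the 10 genes in voomWithQualityWeights was -0.06, against -0.01 over all tested genes, and the median of its absolute size was 0.36, against 0.23. The plot of CPM by library shows these 3 patterns.

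**Figure D1:**
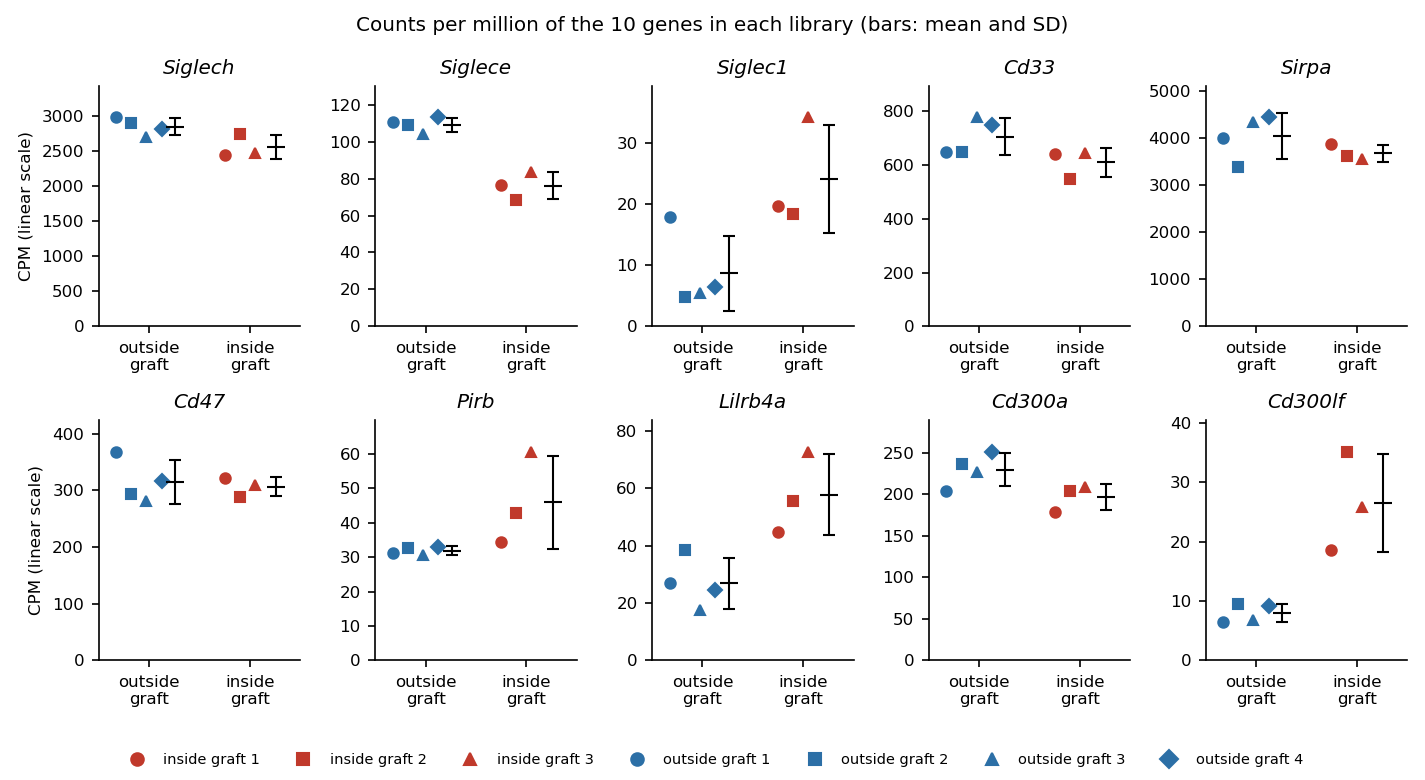
CPM (counts per 1000000, scaled with TMM factors, linear axes from 0) of the 10 genes in the 4 libraries from outside and the 3 from inside the graft, with 1 symbol per library and the group mean and SD beside it. Cd300lf, Lilrb4a, Pirb and Siglec1 have all 3 inside libraries above all 4 outside libraries, Siglece and Cd33 have them below, and for Siglec1 outside graft 1, at 17.9 CPM, lies next to the inside libraries.

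The levels of the 10 genes spanned a wide range, so they were ranked as TPM, transcripts per 1000000 after division by exon length. Siglech and Sirpa led, with means of 2472 ± 238 TPM and 2434 ± 378 TPM (SD, n = 7). They exchanged places between libraries, Siglech being the higher of the pair in 4 of 7. Cd33 followed at 264 ± 45.9 TPM, separated from Sirpa by 9.22-fold with no overlap between libraries. Siglece (159 ± 36.6 TPM), Cd47 (152 ± 16.2 TPM) and Cd300a (140 ± 21.5 TPM) overlapped one another. Another gap of 5.42-fold with no overlap separated Cd300a from Pirb (25.8 ± 6.92 TPM) and Lilrb4a (23.1 ± 10.6 TPM), which overlapped. Cd300lf (9.23 ± 5.88 TPM) and Siglec1 (6.44 ± 4.43 TPM) were lowest and overlapped as well. The 4 genes that had every inside library higher in CPM were the 4 with the lowest levels. On the TPM scale 2 of them, Lilrb4a and Cd300lf, remained apart, while Pirb (23.4 to 41.1 TPM inside and 21.1 to 23.9 TPM outside the graft) and Siglec1 (7.08 to 14.5 TPM inside and 2.07 to 7.60 TPM outside) overlapped.

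Places in this order differed between the groups for neighbouring genes. Siglece was above Cd47 in 4 of 4 outside libraries and in 0 of 3 inside libraries. Cd47 was above Cd300a in 3 of 3 inside and 1 of 4 outside libraries. The inside libraries also had Lilrb4a above Pirb in 3 of 3, while outside the graft Pirb was above Lilrb4a in 3 of 4. These ranks are descriptions and were not tested.

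**Figure D2:**
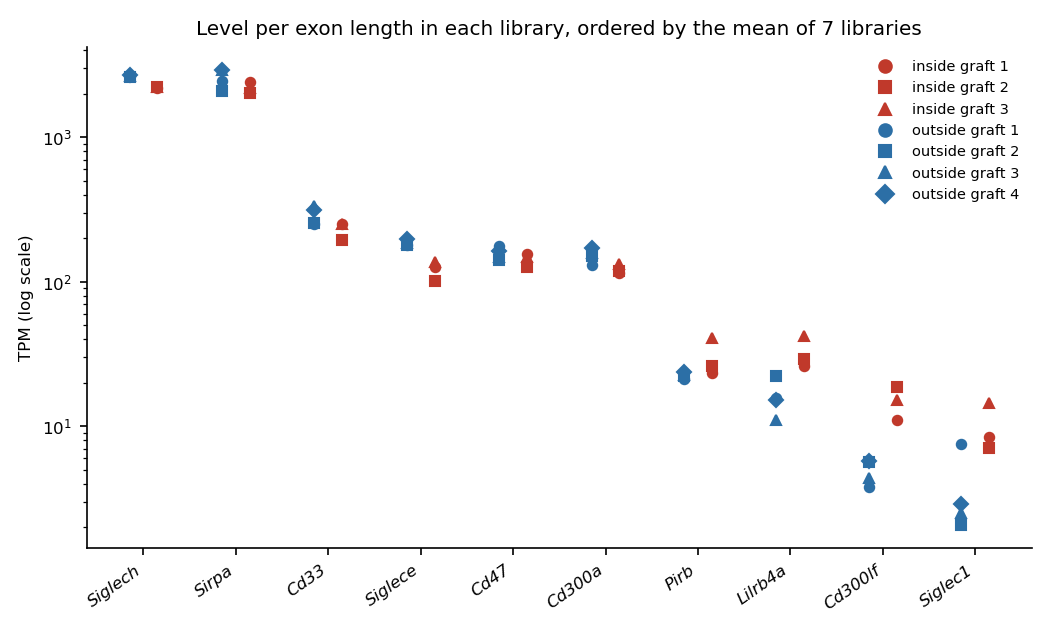
Level per exon length (TPM, log axis) of the 10 genes in each library, ordered by their mean over 7 libraries, with outside libraries to the left and inside libraries to the right of each position. The 2 wide gaps lie between Sirpa and Cd33 and between Cd300a and Pirb, and of the 4 genes to the right of the latter, Lilrb4a and Cd300lf have all inside libraries on top.

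The 9 receptors together (all but the ligand Cd47) summed to 5174, 4747 and 5038 TPM inside the graft and to 5755, 5342, 6312 and 6364 TPM outside it. The inside sums all lay below the outside sums, with means of 4986 ± 218 TPM (SD, n = 3) and 5943 ± 487 TPM (SD, n = 4). The difference of -957 TPM had P = 0.0571 in an exact two-sided permutation test and an adjusted P of 0.229 over the 4 summed values tested, where the smallest P that 35 splits allow is 0.0286. The TPM scale itself moved against the CPM scale, since the median gene had a log2 ratio of inside to outside means of -0.12 in TPM and -0.01 in CPM. Summed in CPM, the 9 receptors differed by -742 CPM, with P = 0.0571 in the same exact permutation test. Siglech supplied 44.6 ± 2.30% of the sum inside and 45.0 ± 3.30% outside the graft (exact permutation P = 0.943, adjusted P = 0.943), and Sirpa supplied 44.1 ± 2.14% and 43.7 ± 3.42% (exact permutation P = 0.743, adjusted P = 0.943). These 2 genes supplied most of the receptor transcripts in both groups, in shares that differed by less than the spread between libraries.

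Among the sialic acid receptors, Siglech is a microglial receptor that lacks an ITIM and signals through Tyrobp. Its gene lies at chr7:55768178-55778925 on the plus strand (GRCm38). Siglech had 2445, 2754 and 2477 CPM inside the graft and 2987, 2906, 2704 and 2821 CPM outside it. Inside graft 2 lay among the outside libraries, so the groups overlapped. Its log2 fold change was -0.14 ± 0.07 (SE) with an adjusted P of 0.495 in voomWithQualityWeights and -0.16 with 0.601 in edgeR, and the 95% confidence interval of its fold change ran from 0.813 to 1.01. Read per length without the normalization factors, its 3 inside values of 2204 to 2236 TPM lay below its outside values of 2614 to 2703 TPM, a log2 ratio of -0.26 that became -0.14 once the shift of all genes was taken off.

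Siglece is the ITIM-bearing Siglec of mouse microglia and neutrophils, which recruits SHP-1 and restrains phagocytosis. It lies at chr7:43651070-43660161 on the minus strand. Siglece had 76.5, 68.6 and 83.5 CPM inside the graft and 111, 109, 104 and 113 CPM outside it. The groups were apart and the outside libraries lay close together. Its log2 fold change was -0.52 ± 0.11, with an adjusted P of 0.0725 in voomWithQualityWeights and 0.116 in edgeR, so it missed both thresholds in both tests, and DESeq2 gave an adjusted P of 0.00330. Leaving out 1 library at a time kept the value between -0.59 and -0.45. With inside graft 2 alone (797 CPM of neutrophil markers) against the 4 outside libraries (at most 367 CPM), its log2 fold change was -0.66 in voomWithQualityWeights. That library had the lowest Siglece level of all, so a larger difference was fixed in advance. The part of neutrophils, which express Siglece too, was not tested.

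Cd33, the mouse homolog of a human myeloid receptor that has been studied in Alzheimer's disease, lies near Siglece at chr7:43524216-43544428 on the same strand. It had 640, 547 and 644 CPM inside the graft and 649.2, 649, 778 and 750 CPM outside it. The groups did not overlap, but inside graft 3 and outside graft 2 were close to each other. The log2 fold change of Cd33 was -0.26 ± 0.10 with an adjusted P of 0.303 in voomWithQualityWeights and -0.21 with 0.621 in edgeR.

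Siglec1 (sialoadhesin, CD169) is a long-bodied adhesion Siglec without an ITIM that marks some tissue macrophages and is known to respond to interferon. It lies at chr2:131069220-131086765 on the minus strand. Siglec1 had 19.6, 18.4 and 34.2 CPM inside the graft and 17.9, 4.85, 5.43 and 6.40 CPM outside it, from 415 to 813 and from 109 to 336 counted reads. Outside graft 1 stood apart from the other outside libraries and lay just under inside graft 2, while inside graft 3 was highest. The log2 fold change was 1.86 ± 0.32 with an adjusted P of 0.0398 in voomWithQualityWeights, in which outside graft 1 had a low weight, and 1.48 ± 0.46 with an adjusted P of 0.268 in edgeR, which gives all libraries the same weight. Without quality weights the voom value was 1.69 with an adjusted P of 0.131. Leaving out outside graft 1 gave 2.12 with an adjusted P of 0.0464 in edgeR. That library had the highest Siglec1 level outside the graft, so a larger difference without it was fixed in advance. With any other library left out, edgeR gave 1.14 to 1.65 with adjusted P values of 0.319 to 0.642.

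The call on Siglec1 in voomWithQualityWeights held when inside graft 2 or outside graft 1 was left out and was lost when any of the other 5 libraries was, with adjusted P values up to 0.262 and log2 fold changes of 1.61 to 2.04. Inside graft 2 had the lowest Siglec1 level inside the graft and outside graft 1 the highest outside it. A larger difference without either of them was therefore fixed in advance. With inside graft 2 alone against the 4 outside libraries, the log2 fold change of Siglec1 was 1.57, from 1 inside library that had the lowest Siglec1 level inside the graft. The library with the highest Siglec1 level, inside graft 3, was also the library with the highest sums of neutrophil (15300 CPM) and monocyte (1703 CPM) markers. Their part in the result was not tested. Outside graft 1, with 17.9 CPM of Siglec1, had 0.640 CPM of neutrophil and 20.9 CPM of monocyte markers. Its sum of border-associated macrophage markers other than Stab1 was 18.2 CPM, against 6.80 to 20.9 CPM in the other outside libraries. Inside the graft these markers summed to 124, 31.7 and 150 CPM, above every outside library and highest in inside graft 3 as well, and their part in the result was not tested.

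Sirpa binds Cd47 on neighbouring cells and recruits SHP-1 and SHP-2. It lies at chr2:129592835-129632228 on the plus strand. Sirpa had 3879, 3607 and 3545 CPM inside the graft and 4004, 3374, 4345 and 4439 CPM outside it. The lowest and the highest values both belonged to outside libraries. The log2 fold change of Sirpa was -0.17 ± 0.10 with an adjusted P of 0.566 in voomWithQualityWeights and -0.14 with 0.764 in edgeR, with a 95% confidence interval of the fold change from 0.767 to 1.04. Reads of its activating relatives Sirpb1a, Sirpb1b and Sirpb1c amounted to at most 0.181% of the sum with Sirpa in any library.

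Cd47, the ligand, lies at chr16:49800533-49915010 on the plus strand. It had 321, 289 and 309 CPM inside the graft and 368, 293, 281 and 316 CPM outside it. The inside values fell within the outside range. For Cd47 the log2 fold change was 0.02 ± 0.10 with an adjusted P of 0.966 in voomWithQualityWeights and -0.04 with 0.961 in edgeR, so its sign depended on the test, and its 95% confidence interval of the fold change ran from 0.870 to 1.18. The ratio of Sirpa to Cd47 in TPM was 15.4 ± 0.651 inside and 16.6 ± 2.77 outside the graft (exact permutation P = 0.486, adjusted P = 0.943). These libraries report Cd47 of the sorted cells and not that of the neurons that Sirpa would meet. The inside libraries also held neutrophil and monocyte transcripts, and the part of those cells in the Sirpa and Cd47 values was not tested.

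Pirb, a receptor of MHC class I that is also known as a neuronal receptor of Nogo and Aβ oligomers, lies at chr7:3711409-3720391 on the minus strand. It had 34.3, 42.8 and 60.7 CPM inside the graft and 31.2, 32.8, 30.5 and 33.0 CPM outside it. The outside libraries lay close together and inside graft 1 only just exceeded them, so the difference rested mostly on inside graft 3. For Pirb the log2 fold change was 0.44 ± 0.19 with an adjusted P of 0.371 in voomWithQualityWeights and 0.53 ± 0.19 with 0.395 in edgeR. Leaving out inside graft 3 brought the voomWithQualityWeights value to its lowest, 0.26, and the values with each library left out reached 0.68. Myeloid blood cells express Pirb too, and its order among inside libraries (highest in 3, lowest in 1) differed from that of the neutrophil sums (highest in 3, lowest in 2). The part of these cells in the result was not tested.

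Lilrb4a (gp49B), an ITIM receptor of myeloid and mast cells, lies at chr10:51490956-51496611 on the plus strand. It had 44.9, 55.6 and 72.8 CPM inside the graft and 26.9, 38.5, 17.4 and 24.4 CPM outside it. Every inside library was above every outside library, with outside graft 2 closest to the inside values. Its log2 fold change was 1.22 ± 0.25, with a fold change of 2.32 and a 95% confidence interval from 1.59 to 3.40, and its adjusted P was 0.0575 in voomWithQualityWeights, 0.130 in edgeR and 0.00350 in DESeq2. Leaving out 1 library at a time gave 0.88 to 1.43 in voomWithQualityWeights, with adjusted P values of 0.0402 to 0.331. Only leaving out outside graft 2 put it past 0.05 (1.39, adjusted P = 0.0402). That library had the highest Lilrb4a level outside the graft, so a larger difference without it was fixed in advance. The stricter filter of 10 counts or more in all 7 libraries also put Lilrb4a past 0.05 (1.24, adjusted P = 0.0192), while the replicate block did not (1.07, adjusted P = 0.0898). With inside graft 2 alone, and so only 1 inside library, the log2 fold change of Lilrb4a was 1.22.

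The Lilrb4a count covers only part of the gene. Of its 5227 annotated exon bases, 1874 (35.9%) are shared with Gm49339 on the same strand or with the antisense gene Gm40645. Under the standard counting settings, a read that overlapped exons of 2 genes was given to neither. The reads counted on these neighbours were few, 1 to 12 on Gm49339 and 57 to 160 on Gm40645. Lilr4b (gp49A), the near-identical activating copy that lacks ITIMs, had 21.6, 15.4 and 31.3 CPM inside the graft and 5.60, 9.34, 17.9 and 13.8 CPM outside it, and its groups overlapped. For Lilr4b the log2 fold change was 0.71 ± 0.32 with an adjusted P of 0.402 in voomWithQualityWeights. Reads that matched both copies were not counted, so the split between the copies is uncertain. Summed before the fit, both copies gave a log2 fold change of 1.01 with an adjusted P of 0.0403 in voomWithQualityWeights and 1.06 with 0.0742 in edgeR. The sum of Lilrb4a with Gm49339 and Gm40645 gave 1.16 with an adjusted P of 0.0548 and, in edgeR, 1.06 with 0.125.

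The CD300 receptors come from 1 gene cluster and differed widely in level. Cd300a, an ITIM receptor of phosphatidylserine and phosphatidylethanolamine, lies at chr11:114890041-114904654 on the plus strand. It had 179, 203 and 209 CPM inside the graft and 204, 236, 227 and 251 CPM outside it. Only inside graft 3 reached above the lowest outside library. For Cd300a the log2 fold change was -0.27 ± 0.10 with an adjusted P of 0.303 in voomWithQualityWeights and -0.22 with 0.589 in edgeR.

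Cd300lf (CLM-1), which binds phosphatidylserine and ceramide and carries ITIMs, lies in the same gene cluster at chr11:115116214-115133992 on the minus strand. The antisense gene Rab37 runs across it without sharing an exon. Cd300lf had 18.6, 35.2 and 25.8 CPM inside the graft and 6.46, 9.52, 6.84 and 9.19 CPM outside it, from 474 to 793 and from 121 to 227 counted reads. Every inside library was well above the highest outside library, and the outside libraries lay close together. Its log2 fold change was 1.62 ± 0.27 in voomWithQualityWeights, a fold change of 3.08 with a 95% confidence interval from 2.04 to 4.64 and an adjusted P of 0.0374. In edgeR it was 1.73 ± 0.27 with an adjusted P of 0.0546, and in DESeq2 1.74 ± 0.28 with an adjusted P of 4.19e-07.

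With voomWithQualityWeights, the Cd300lf call held when inside graft 1 or inside graft 2 was left out and was lost when inside graft 3 or any outside library was, with log2 fold changes between 1.43 and 1.90 and adjusted P values of up to 0.231. Inside graft 1 had the lowest Cd300lf level inside the graft, so a larger difference without it was fixed in advance. Inside graft 2 had the highest Cd300lf level and, among inside libraries, the lowest sums of neutrophil (797 CPM), monocyte (126 CPM) and border-associated macrophage markers other than Stab1 (31.7 CPM), each still above every outside library. With that library alone against the 4 outside libraries, the log2 fold change of Cd300lf was 2.12 in voomWithQualityWeights and 2.14 in edgeR. This split was chosen after seeing the data. It keeps the inside library with the highest Cd300lf level, so a larger value than with all inside libraries was fixed in advance. This fit assumes that the lone inside library varies like the outside ones. The dividing cell sum of inside graft 2 (92 CPM) was also above those of the outside libraries. The part of neutrophils, monocytes, border-associated macrophages and dividing cells in the result was not tested.

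**Figure D3:**
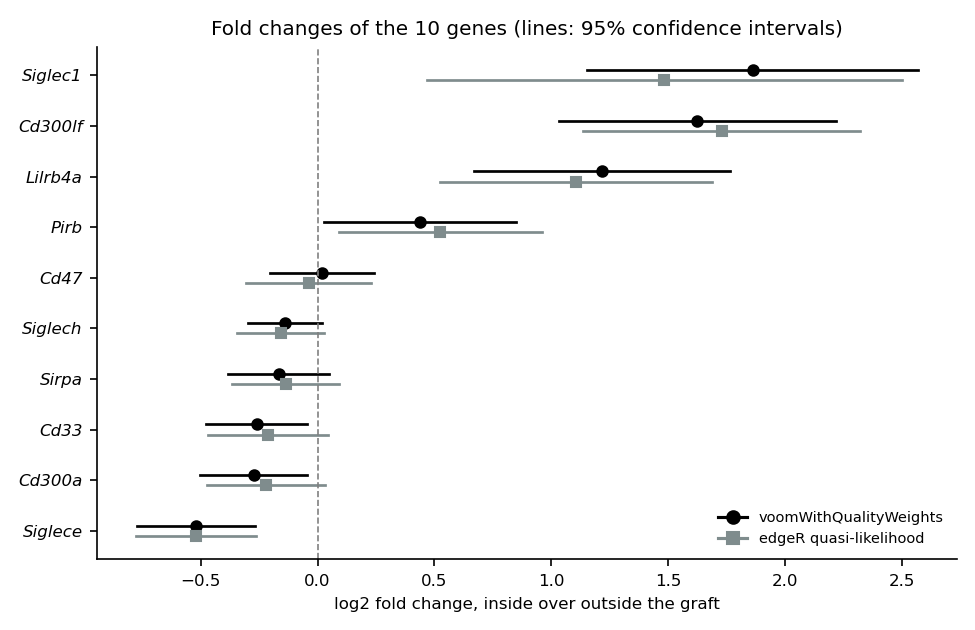
Log2 fold changes, inside over outside the graft, of the 10 genes in voomWithQualityWeights (circles) and edgeR (squares) with 95% confidence intervals as lines, ordered by the former. Siglec1, Cd300lf and Lilrb4a lie above 1 in both tests, Siglece lies at -0.52 in both, and the intervals of Cd47, Siglech and Sirpa include 0 in both.

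**Figure D4:**
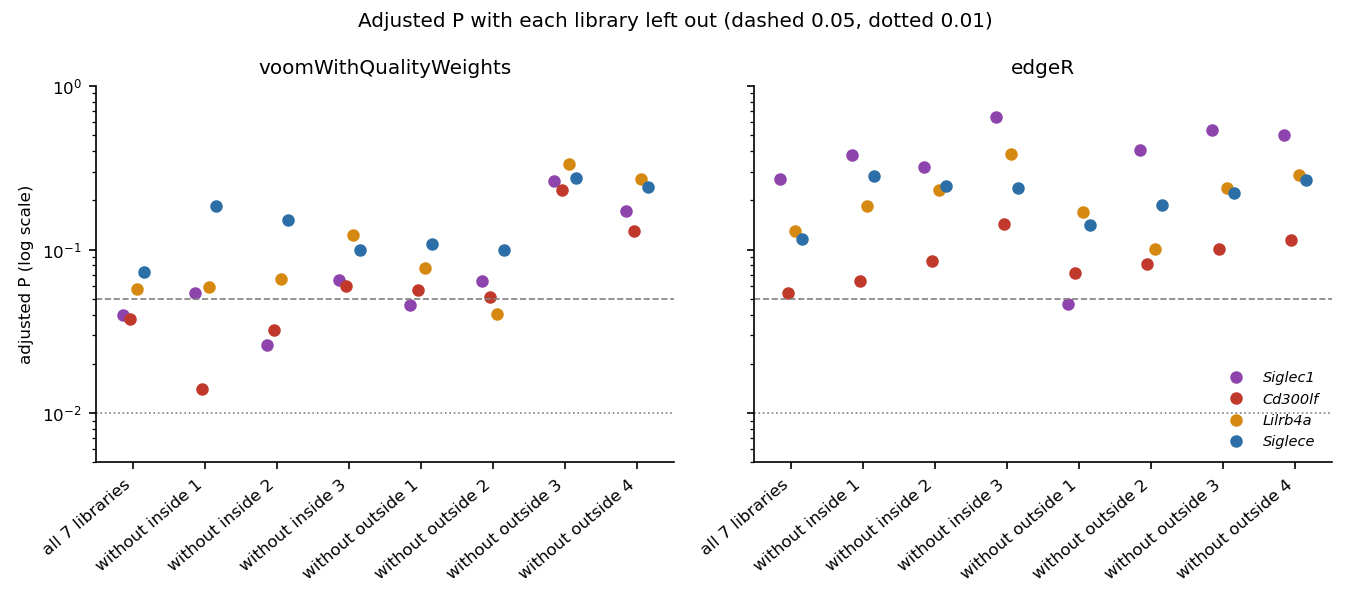
Adjusted P (log axis) of Siglec1, Cd300lf, Lilrb4a and Siglece with all 7 libraries and with each library left out, in voomWithQualityWeights and edgeR, with lines at 0.05 and 0.01. With voomWithQualityWeights, leaving out outside graft 3 or outside graft 4 lifts all 4 genes above 0.1. In edgeR the only point below 0.05 is Siglec1 without outside graft 1, the outside library with the highest Siglec1 level.

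The signs of other cell types were then read for the whole marker lists. Of all tested genes, 5.65% had every inside library above every outside library, the share to set beside the counts below. Of the neutrophil list, 7 of 8 genes were tested and 6 had every inside library above every outside library, among them S100a8 at 1953, 208 and 4077 CPM inside the graft and 0.213, 0.0890, 80.3 and 8.91 CPM outside it. Of the monocyte list, 13 of 14 were tested and 5 were apart in this way, with sums of 846, 126 and 1703 CPM inside and 20.9 to 50.2 CPM outside the graft. Ly6c2 and Chil3 were among these 5, while Ccr2 overlapped between the groups. Of the border-associated macrophage list, 11 of 13 were tested and 3 were apart, 10 were higher in the mean and the median log2 fold change was 2.54. Stab1, which microglia also express and which was the 1 lower gene, made up most of the sum of this list (410 to 669 CPM inside and 534 to 635 CPM outside the graft). The other 12 genes summed to 124, 31.7 and 150 CPM inside the graft and to 6.80 to 20.9 CPM outside it, without overlap. None of these genes passed an adjusted P of 0.05 in either test. The lymphocyte list had at most 13.4 CPM in any library, with Cd3d, Ms4a1 and Ncr1 at 0 in all 7, and none of its 11 genes entered the tests. The dendritic cell list, in which Bst2 was most abundant (182 CPM inside and 108 CPM outside the graft on average), summed to 177 to 290 CPM inside and 110 to 157 CPM outside the graft, with Ly6d at 0 in all 7 and 2 of 7 tested genes apart. Lists of neurons, astrocytes, oligodendrocytes, endothelial cells with pericytes, and immediate early genes each had 0 genes past 0.05 in either test.

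**Figure D5:**
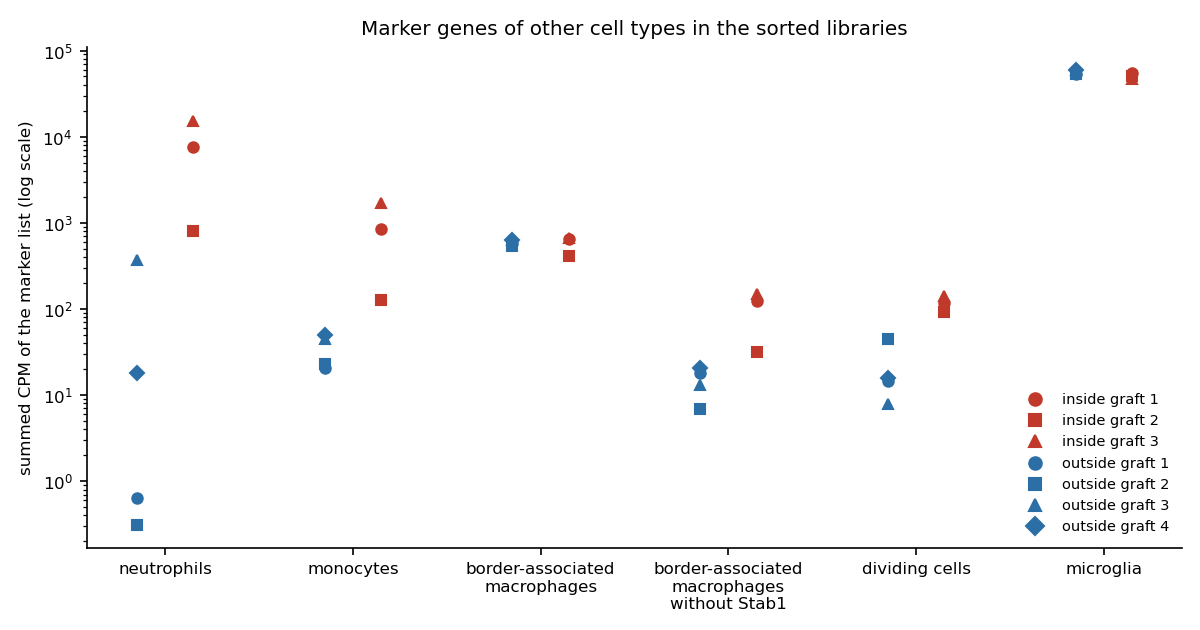
Summed CPM (log axis) of marker lists in each library, that of border-associated macrophages with and without Stab1, with outside libraries to the left and inside libraries to the right of each position. Neutrophil, monocyte and dividing cell sums and the border-associated macrophage sum without Stab1 are higher in every inside library, with inside graft 2 lowest of the 3, while the macrophage sum with Stab1 and the microglia sum overlap.

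The other lists concern genes around these receptors. Of 20 further inhibitory receptors, 18 were tested, 11 were higher and 7 lower in the mean, and 1 passed an adjusted P of 0.05 in voomWithQualityWeights and 0 in edgeR. This was Milr1 (allergin-1), an ITIM receptor of mast cells and macrophages, at 46.4, 54.1 and 39.4 CPM inside the graft and 27.6, 30.7, 15.3 and 20.1 CPM outside it. Its groups did not overlap, and its log2 fold change was 1.20 ± 0.22 with an adjusted P of 0.0479 (0.140 in edgeR). The median of the list was 0.28, against -0.01 for all genes. Lair1, a collagen receptor, differed by -0.03 ± 0.08 (adjusted P = 0.925), and the inhibitory Fc receptor Fcgr2b, with every inside library higher, by 0.40 ± 0.13 (adjusted P = 0.235) in voomWithQualityWeights.

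Of 31 paired activating receptors and adaptors, 26 were in the count table, 16 were tested, 14 of these were higher and 2 lower in the mean, and 0 passed an adjusted P of 0.05 in either test. The median of the list was 0.73. The adaptor Tyrobp, on which Siglech depends, had 1712, 2569 and 1427 CPM inside the graft and 1479, 1687, 920.5 and 1088 CPM outside it. The groups overlapped and inside graft 2 was highest. The Tyrobp log2 fold change was 0.69 ± 0.22 with an adjusted P of 0.204 in voomWithQualityWeights, and that of Fcer1g was 0.19 ± 0.14 with 0.660. Several genes of the list are known from neutrophils and monocytes as well, and that overlap was not tested.

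Next came the enzymes and adaptors that act downstream of these receptors. All 25 genes of ITIM signalling were tested, 10 were higher and 15 lower, 0 passed in either test and the median was -0.09. Ptpn6 (SHP-1) differed by 0.20 ± 0.10 (adjusted P = 0.457), Ptpn11 (SHP-2) by 0.25 ± 0.17 (0.626) and Inpp5d (SHIP-1) by -0.21 ± 0.10 (0.420) on the log2 scale of voomWithQualityWeights. The largest differences of the list were those of the kinase Fgr, 1.75 ± 0.38 (adjusted P = 0.0695), and of the adaptor Dok3, -0.53 ± 0.15 (adjusted P = 0.142).

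On the ligand side, 23 of 33 genes of sialic acid synthesis, transfer and removal were tested, 11 were higher and 12 lower, and 1 passed 0.05 in voomWithQualityWeights and 0 in edgeR. This gene, St8sia6, adds sialic acid to sialylated sugars and makes ligands of Siglece. St8sia6 had 94.0, 81.8 and 64.7 CPM inside the graft and 28.7, 41.1, 24.3 and 41.5 CPM outside it. Every inside library was above every outside library, the opposite order to that of Siglece. For St8sia6 the log2 fold change was 1.29 ± 0.22 with an adjusted P of 0.0374 in voomWithQualityWeights and 0.0682 in edgeR. The enzyme Cmas, which activates sialic acid, differed by -0.21 ± 0.13 (adjusted P = 0.587) and the sialidase Neu1 by 0.11 ± 0.13 (adjusted P = 0.798) in voomWithQualityWeights. The median of the list was -0.01.

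Of 19 protein ligands, 18 were in the table and 12 were tested, 10 higher and 2 lower, with a median of 0.69, and 1 passed 0.05 in both tests. This was Apoe, the lipid carrier that binds LILRB4 in human myeloid cells. Apoe had 3077, 8306 and 3989 CPM inside the graft and 1248, 1041, 627 and 867 CPM outside it. The groups were far apart and inside graft 2, the library with the most Cd300lf, was highest. The Apoe log2 fold change was 2.47 ± 0.30 with an adjusted P of 0.0136 in voomWithQualityWeights and 2.44 with 0.0357 in edgeR. The microglial genes Cx3cr1 (-0.20 ± 0.08, adjusted P = 0.357), P2ry12 (-0.50 ± 0.12, adjusted P = 0.0854) and Tmem119 (-0.44 ± 0.11, adjusted P = 0.0999) were lower in the mean inside the graft in voomWithQualityWeights without passing the threshold.

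The genes whose log2 CPM followed the 2 receptors with the largest fold changes most closely over the 7 libraries were listed among 10181 tested genes with at least 5 CPM on average. For Siglec1 they were Lyst (r = 0.980), Pqlc1 (r = 0.972) and 2900089D17Rik (r = 0.967), and for Cd300lf they were Haao (r = 0.984), Abracl (r = 0.982) and Cd84 (r = 0.982). Lyst, Pqlc1 and 2900089D17Rik all shared the raised value of outside graft 1. It was 59.8 CPM against 46.2 to 47.3 CPM in the other outside libraries for Lyst and 16.1 CPM against 5.56 to 6.80 CPM for Pqlc1. For 2900089D17Rik it was 5.76 CPM against 3.69 to 4.14 CPM. With 7 points in 2 groups, these are Pearson correlations given as a description.

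The upstream sequences of 4 of these receptors are shown because they form 2 pairs from the same gene clusters, Cd300lf with Cd300a and Siglece with Cd33. In voomWithQualityWeights the log2 fold changes were 1.62 and -0.27 in the former pair and -0.52 and -0.26 in the latter, of which that of Cd300lf alone passed an adjusted P of 0.05, and no difference between members of a pair was tested. RefSeq sequences on GRCm38.p6 matched 7 of the 10 genes. Siglec1, Sirpa and Lilrb4a were not matched. Each line gives the 250 bases before the RefSeq start in the direction of transcription, and capitals mark the core of the purine box bound by PU.1, the transcription factor of the macrophage lineage (GAGGAA, or TTCCTC on the other strand). The regions are chr11:115133993-115134242 (minus strand), chr11:114889791-114890040 (plus strand), chr7:43660162-43660411 (minus strand) and chr7:43533172-43533421 (minus strand). The last, that of Cd33, lies inside the counted gene (chr7:43524216-43544428) and not before it, because the RefSeq start used lies within that gene.
Cd300lf: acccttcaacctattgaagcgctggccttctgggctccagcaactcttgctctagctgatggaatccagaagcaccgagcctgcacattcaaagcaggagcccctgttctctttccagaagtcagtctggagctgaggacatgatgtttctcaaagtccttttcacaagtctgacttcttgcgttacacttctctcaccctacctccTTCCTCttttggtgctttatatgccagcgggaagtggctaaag
Cd300a: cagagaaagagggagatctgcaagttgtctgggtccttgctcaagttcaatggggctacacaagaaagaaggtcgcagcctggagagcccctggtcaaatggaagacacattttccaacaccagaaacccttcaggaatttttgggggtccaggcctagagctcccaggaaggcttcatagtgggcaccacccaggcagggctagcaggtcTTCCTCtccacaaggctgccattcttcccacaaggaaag
Siglece: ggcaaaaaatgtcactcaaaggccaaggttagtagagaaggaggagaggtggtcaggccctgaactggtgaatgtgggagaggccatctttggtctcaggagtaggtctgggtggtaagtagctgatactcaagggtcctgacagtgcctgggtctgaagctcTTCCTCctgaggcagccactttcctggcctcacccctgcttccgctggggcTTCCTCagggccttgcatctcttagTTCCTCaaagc
Cd33: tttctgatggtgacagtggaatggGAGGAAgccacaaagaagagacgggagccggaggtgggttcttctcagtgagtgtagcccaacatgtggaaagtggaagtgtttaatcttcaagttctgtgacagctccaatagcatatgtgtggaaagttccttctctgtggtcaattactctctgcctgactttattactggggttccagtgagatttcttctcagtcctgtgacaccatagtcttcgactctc

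The core was found in 5 of 7 matched genes, 3 times in Siglece, 3 times in Pirb and once each in Cd33, Cd300a and Cd300lf, but not in Siglech or Cd47, and in 23.1% of 27025 RefSeq windows of this length. Receptors with a positive log2 fold change (Pirb and Cd300lf) and receptors with a negative one (Siglece, Cd33 and Cd300a) both had it. The core of the interferon-stimulated response element (both strands) was in 0 of the 7 windows and in 3.04% of all, and the AP-1 site (TGANTCA, both strands) in 0 of the 7 and in 6.87% of all. Such matches describe the letters of these windows only. The windows of Cd33 and Cd47 (chr16:49855404-49855653) lie inside their counted genes, so they do not show the sequence before those genes.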

How the data were processed

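RNA of CD11b+CD45low cells was amplified with a SMARTer kit without molecular identifiers and sequenced as single reads. The authors aligned the reads with STAR 2.7.2a to GRCm38.p6 and counted them with featureCounts 1.6.2 on GENCODE M21. The deposited values are these raw counts, 1 row per gene name, not normalized. Strand was not used and reads with several alignments were not counted, which affects gene copies, and antisense reads over an exon cannot be told apart. The deposited gene length in bases (no fixed unit, summed exons) served for TPM. Totals ran from 18644807 to 25882122 counts per library, and all 9 pairs of libraries within a group differed by more than sampling noise.

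Genes were filtered with filterByExpr and normalized with TMM, leaving 15257. The study's limma test (voomWithQualityWeights, thresholds of 0.01 and 0.05) was run beside edgeR's glmQLFTest with Benjamini-Hochberg adjustment over all tested genes (R 4.3.3, edgeR 4.0.16, limma 3.58.1, DESeq2 1.42.0). Single summed values were tested with an exact permutation test. CPM used TMM library sizes. On 3 simulated sets of 14652 to 14700 genes for the inside against outside comparison with known changes, an adjusted P below 0.05 found 53.7% of 2-fold, 87.6% of 4-fold and 97.5% of 8-fold changes with voomWithQualityWeights and 57.2%, 91.0% and 99.5% with edgeR, with 4 to 9 and 7 to 13 false calls per set. The simulated sets changed only genes above 5 CPM and gave a gene the same spread in every library. They held no libraries of unequal quality, so these rates may not hold for the real libraries. The 10 genes and all lists were chosen with earlier results of these data known. Genes named besides the 10 were those of each list past 0.05, otherwise the 2 with the largest change at 5 CPM or more, a fixed set of adaptors, phosphatases, sorting and microglial genes, and the 3 closest correlates of 2 receptors. S100a8, Ly6c2, Chil3, Ccr2, Bst2, Stab1, Top2a and Birc5 were named after their values were seen. Alternatives covered normalization, filter, test, weights, replicate block and each library left out. Chosen after seeing the data were the macrophage marker sum without Stab1, Lilrb4a summed with its overlapping genes and inside graft 2 alone against the outside libraries.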

Additional observations from a re-analysis of the deposited data

Results flagged for a closer look

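Siglec1 had 17.9 CPM in outside graft 1 and 4.85 to 6.40 CPM in the other 3 outside libraries. The gap to the nearest of them was 0.881 of the group's whole range, above Dixon's 95% critical value for 4 samples. It was 1 of 14 groups of 4 libraries tested, where chance alone would mark 0.7. Outside graft 1 also had the smallest total (18644807 counts) and the lowest quality weight (0.448).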

How the results depend on the processing

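The direction of 9 of the 10 genes was the same in all alternatives of both tests. Cd47 was the exception. Its log2 fold change in voomWithQualityWeights, 0.02, was -0.0155 with library size alone, -0.0263 without quality weights, -0.0384 in edgeR, -0.0241 in DESeq2, -0.000502 with the replicate block, -0.0653 with inside graft 2 alone and -0.0327 to 0.0549 with each library left out, and in edgeR it ran from -0.0884 to 0.0470 with each library left out. Among the 10 genes, the number past an adjusted P of 0.01 in voomWithQualityWeights (0) was 2 at 0.05, 1 with at least 10 counts in every library, 3 in DESeq2 and 1 with the replicate block, and the number past 0.05 (2) was 3 with at least 10 counts in every library, 0 without quality weights, 0 in edgeR, 4 in DESeq2, 1 with the replicate block, 1 with inside graft 2 alone and 0 to 2 with each library left out. The number past 0.05 in edgeR (0) was 3 without the filter on low counts, 1 with at least 10 counts, 4 in DESeq2, 2 with legacy=FALSE and 0 to 1 with each library left out.

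Over all genes, the 3 past 0.01 in voomWithQualityWeights became 75 at 0.05, 1 with library size alone, 41 without the filter, 48 with at least 10 counts, 1 without quality weights, 0 in edgeR, 284 in DESeq2, 77 with the replicate block, 30 with inside graft 2 alone and 0 to 33 with each library left out. The 75 past 0.05 became 225 without the filter, 211 with at least 10 counts, 10 without quality weights, 15 in edgeR, 504 in DESeq2, 265 with the replicate block, 145 with inside graft 2 alone and 1 to 207 with each library left out. The 15 past 0.05 in edgeR became 366, 92 and 504 under the same filters and DESeq2, 247 with legacy=FALSE, 43 with the replicate block, 3 with inside graft 2 alone and 0 to 73 with each library left out. The inside minus outside difference in the share of Siglech (-0.409 percentage points) ran from -1.67 to 0.908 with each library left out and that of Sirpa (0.489) from -1.02 to 1.46. The causes of these changes were not tested.

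Replicate numbers 1 to 3 occur in both groups, but the labels do not say what they mark. The deviations of same-numbered libraries had correlations of -0.0432, 0.0902 and 0.0667. Inside graft 2 and inside graft 3 each correlated best with the outside library of the same number, and inside graft 1 with outside graft 3. Correlations this small cannot decide whether the numbers mark pairs, and the main fit had no block. With the replicate block, which leaves out outside graft 4, Siglec1 had a log2 fold change of 1.79 with an adjusted P of 0.0535 in voomWithQualityWeights and 1.58 with 0.415 in edgeR. Cd300lf had 1.85 with an adjusted P of 0.00582 in voomWithQualityWeights and 1.78 with 0.0529 in edgeR. It was also the gene past 0.01 in voomWithQualityWeights with at least 10 counts in every library (adjusted P = 0.00794). Intervals and tests treat amplified reads as molecules, and the receptors with the fewest reads, Siglec1 and Cd300lf, are the least precise.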
